A study of Mus musculus with 6 samples.

Results

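The 7 genes described here encode inhibitory receptors carried by eosinophils: Siglec5, Siglece, Cd300a, Cd300lf, Lilrb4, Pirb and Fcgr2b. They were chosen by name from the 22548 gene symbols of the deposited tables for their known function, with earlier results of these data known. By symbol, 6 of the 7 were found. The other one, Pirb, is listed under the symbol Lilrb3 and was found by its RefSeq transcript, NM_011095. Siglec5 in these tables is the transcript NM_145581, which RefSeq names Siglecf and which encodes the protein Siglec-F.

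The RNA came from 6 libraries of mouse eosinophils, 1 library for each group. Wild-type BALB/c mice aged 4 to 8 weeks gave the low-density bone marrow cells, which were cultured for 14 days. Until day 4 the medium held FLT3-Ligand and SCF (stem cell factor), each at 100 ng/ml, and from that day IL-5 at 10 ng/ml. The groups were cells given IL-33 at 10 ng/ml for 1 h or 4 h, cells given IL-4 at 10 ng/ml for 1 h or 4 h, and untreated cells of 1 h and 4 h. All groups thus shared the same culture with IL-5, and the study asked which part of the response to IL-33 passes through IL-4 made by the eosinophils. With 1 library in each group there is no spread between replicates, differences could not be checked against replicates and p-values are not given.

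Inhibitory receptors of this kind carry an immunoreceptor tyrosine-based inhibitory motif (ITIM) in the part of the protein that lies inside the cell. When the receptor meets its ligand, Src-family kinases such as Lyn phosphorylate the motif, which then recruits the phosphatases SHP-1 (Ptpn6) and SHP-2 (Ptpn11) or the lipid phosphatase SHIP-1 (Inpp5d), and these dampen signals from activating receptors nearby. Eosinophils carry several such receptors. Siglec-F is used as a surface marker of mouse eosinophils, and its ligation is known to promote their death.

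Values are FPKM, fragments scaled by transcript length and sequencing depth, summed over the transcripts of a gene. A change is log2((treated FPKM + 1) / (untreated FPKM + 1)), taken within 1 deposited table, which makes changes at low FPKM look smaller than they are. A gene was compared when either library had an FPKM of 1 or more, and it is said to have risen or fallen only at an absolute change of at least 1. All 7 receptors were compared in every comparison. The libraries held 10381 to 10682 genes with FPKM of at least 1, and Prg2, which encodes eosinophil major basic protein, ranked first in each. The depth of the treated libraries relative to their untreated partners, estimated from the spacing of low values, was 1.15 for IL-33 at 1 h, 1.88 for IL-33 at 4 h, 0.986 for IL-4 at 1 h and 1.24 for IL-4 at 4 h.

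After 4 h of IL-33, 2 of the 7 receptor genes had risen, Siglece with a change of 2.98 and Lilrb4 with a change of 1.396. As plain ratios of FPKM, without the added 1, these were 10.6-fold and 2.64-fold. The other 5 had changes between -0.29 and 0.68, and none of the 7 fell. In bulk RNA, more cells of a type and more RNA per cell cannot be told apart. In the same library 3 of 11 monocyte and macrophage markers were past the threshold (Cd14, Csf1r and Mrc1, all higher), with a summed FPKM of 2147 with IL-33 at 4 h, against 1424 in untreated cells, and their part in these results was not tested. Of the 11 markers, 6 had a change above 0 and 5 a change below 0, among them Ccr2 (-0.75), Cx3cr1 (-0.50) and C1qa (-0.34). The background for the count of receptors is 5.53% of all 10803 genes compared, 448 higher and 149 lower. The median change of the 7 receptors was 0.40, and that of all genes was -0.03. After 1 h of IL-33, none of the 7 was past the threshold, against a background of 3.03% of 10616 genes, and the median was 0.06 for the receptors and -0.01 for all genes. With IL-4, none was past it at 1 h or at 4 h, with backgrounds of 0.828% of 10628 genes and 0.997% of 10833 genes. The medians with IL-4 were 0.00 at 1 h and 0.08 at 4 h for the receptors, beside -0.02 and 0.02 for all genes.

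**Figure D1:**
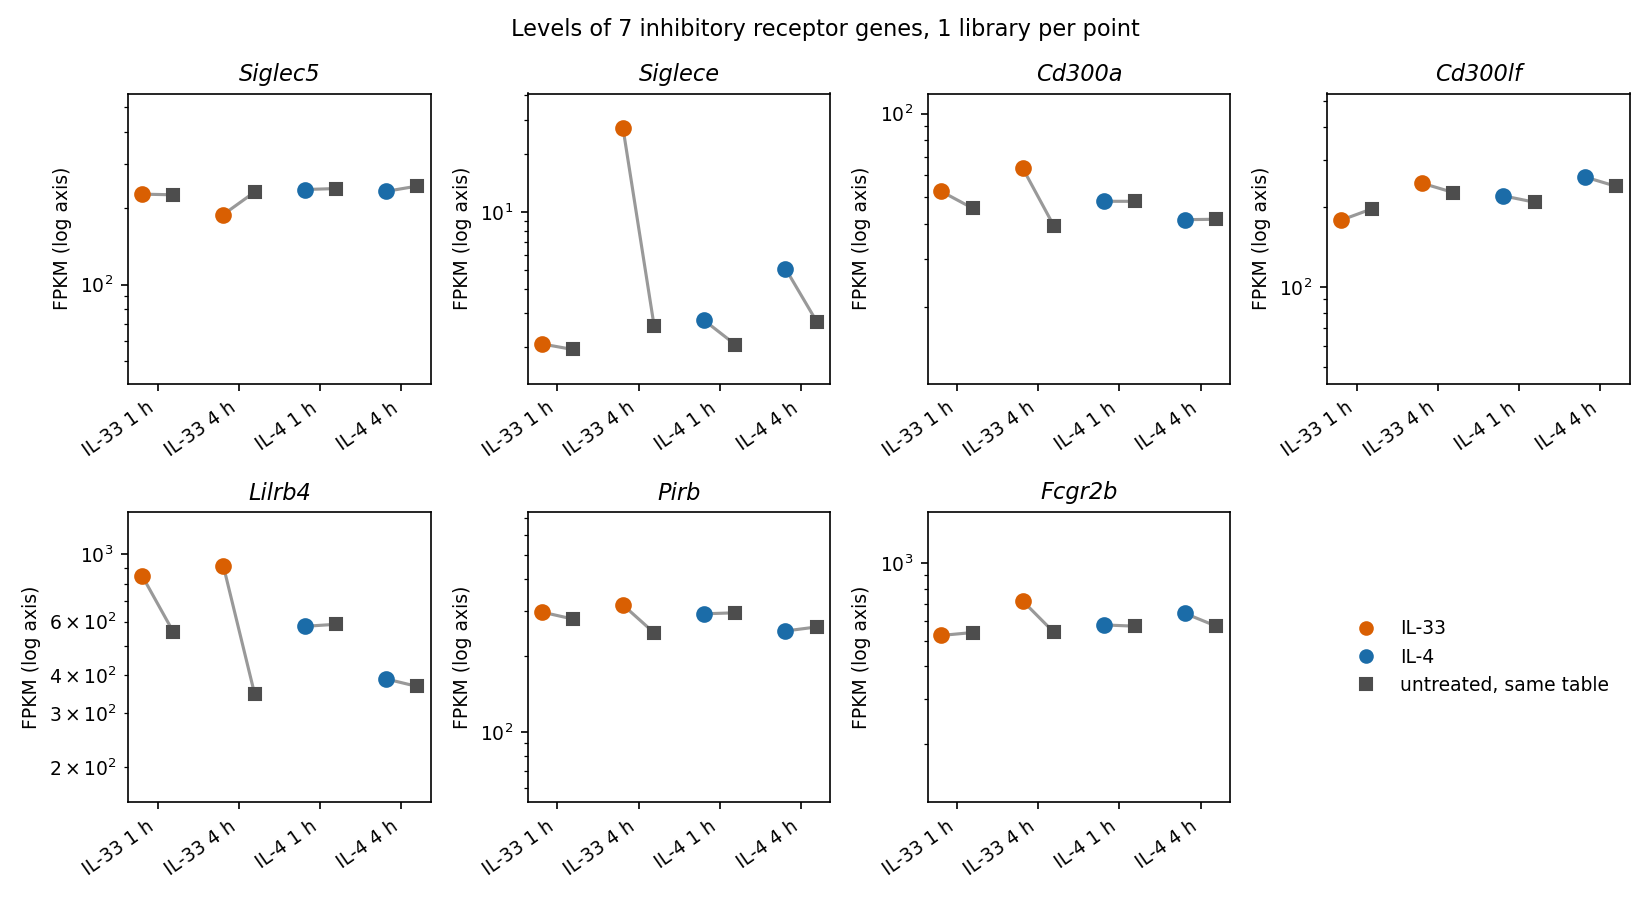
FPKM (log axis) of the 7 receptor genes, 1 panel a gene, with 1 library per point. Each coloured circle is a treated library (orange IL-33, blue IL-4) joined to the untreated library of the same table (grey square), and the widest gaps are those of Siglece (27.3 against 2.57 FPKM in untreated cells) and Lilrb4 (918 against 348 FPKM in untreated cells) with IL-33 at 4 h.

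The receptors differed widely in level. In untreated cells of 4 h, in the IL-4 table, Fcgr2b was highest with 572 FPKM, followed by Lilrb4 with 368, Pirb with 259, Siglec5 with 245 and Cd300lf with 239. Cd300a was lower at 41.6 FPKM and Siglece lowest at 2.72 FPKM. Ranked among all genes of that library, Fcgr2b was at place 190 and Siglece at place 9146. Pirb, Siglec5 and Cd300lf lay at places 381, 396 and 402, and their order cannot be set against any spread. In the library of IL-33 at 4 h, Lilrb4 stood above Fcgr2b, at place 116 against place 147, and Siglece was at place 3170. Lilrb4 also stood above Fcgr2b in untreated cells of 1 h, at place 196 against place 201, so this order was not particular to IL-33. The 7 genes summed to 2479 FPKM with IL-33 at 4 h, against 1637 FPKM in untreated cells, and to 2136 FPKM with IL-33 at 1 h, against 1846 FPKM in untreated cells. With IL-4 the sum was 1819.6 FPKM at 4 h, against 1728 FPKM in untreated cells, and 1959 FPKM at 1 h, against 1954 FPKM in untreated cells.

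The Siglec genes are described first. Siglecs are lectins that bind sialic acid on glycans. Siglec-F prefers sialylated and sulfated glycans of the airway epithelium, and Siglec-E is known chiefly from mouse neutrophils and macrophages, where it restrains their activation. In build mm9 both genes lie on chromosome 7, Siglec5 at 50606775 to 50614840 and Siglece (NM_031181) at 50906440 to 50915531. Each is listed with 1 transcript. Of the 50-base windows of these transcripts, 0.244% for Siglec5 and 0% for Siglece occur in another annotated gene, so few of their reads could have been split with a relative.

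Siglece had 27.3 FPKM with IL-33 at 4 h, against 2.57 FPKM in untreated cells, a change of 2.98 that ranked 83 from the top among 10803 genes. It had 2.09 FPKM with IL-33 at 1 h, against 1.95 FPKM in untreated cells (0.06). The rise was thus present at 4 h and not at 1 h, and the difference of both changes was 2.92. With IL-4, Siglece had 5.11 FPKM at 4 h, against 2.72 FPKM in untreated cells (0.72), and 2.76 FPKM at 1 h, against 2.07 FPKM in untreated cells (0.29). Neither value with IL-4 reached the threshold. They ranked 113 from the top at 4 h and 243 at 1 h, above the 95th percentile of all genes, which was 0.28 and 0.18. Siglece was the only one of the 7 receptors above that percentile in either IL-4 comparison.

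The level of Siglece in untreated cells rested on few reads. By the spacing of low values, the 2.57 FPKM of the untreated library of 4 h stood for an estimated 72 reads, and the 27.3 FPKM with IL-33 for 1437. Exact Poisson 95% intervals were 25.9 to 28.7 FPKM with IL-33 and 2.01 to 3.24 FPKM without. With IL-4 at 4 h the interval was 4.37 to 5.94 FPKM, against 2.13 to 3.42 FPKM in untreated cells, and these also did not overlap. With IL-4 at 1 h they overlapped, at 2.24 to 3.36 FPKM against 1.62 to 2.59 FPKM in untreated cells. Such intervals cover counting error only and say nothing of the variation between cultures. In the authors' deposited table of significant genes, which lists 1593 genes, Siglece was marked at 4 h for both cytokines, with log2 fold changes of 3.41 for IL-33 and 0.91 for IL-4. The rule behind that mark is not stated in the sources used here, and with 1 library per group it can compare libraries only.

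Siglec5 kept a level between 189 and 245 FPKM in all libraries. It had 189 FPKM with IL-33 at 4 h, against 232 FPKM in untreated cells (-0.29), its lowest level in the 6 libraries. At 1 h of IL-33 it had 227 FPKM, against 226 FPKM in untreated cells (0.01). With IL-4 it had 233 FPKM at 4 h, against 245 FPKM in untreated cells (-0.07), and 237 FPKM at 1 h, against 239 FPKM in untreated cells (-0.01). None of these is past the threshold, and changes at least as large as that of IL-33 at 4 h were seen in 40.3% of all genes compared. Siglec5 made up 7.62% of the summed FPKM of the 7 receptors with IL-33 at 4 h, against 14.2% in untreated cells. That share depends on the sum, in which Lilrb4 had 918 FPKM, against 348 FPKM in untreated cells. The authors' deposited table of significant genes does not list Siglec5. Counting intervals for IL-33 at 4 h did not overlap (186 to 192 FPKM against 227 to 237 FPKM in untreated cells), though these cover no variation between cultures. Those for IL-4 at 4 h, where the change was -0.07, did not overlap either (229 to 238 FPKM against 240 to 250 FPKM in untreated cells).

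The promoters of these related genes are shown because one gene rose with IL-33 and the other did not. The sequences are those of RefSeq (build GRCm38.p6, reference strain and not BALB/c), 250 bases before to 50 bases after the annotated start, 5′ to 3′ on the gene's strand. The Siglece window is chr7:43660112-43660411 on the minus strand and the Siglec5 window, listed as Siglecf, is chr7:43351091-43351390 on the plus strand.
Siglece: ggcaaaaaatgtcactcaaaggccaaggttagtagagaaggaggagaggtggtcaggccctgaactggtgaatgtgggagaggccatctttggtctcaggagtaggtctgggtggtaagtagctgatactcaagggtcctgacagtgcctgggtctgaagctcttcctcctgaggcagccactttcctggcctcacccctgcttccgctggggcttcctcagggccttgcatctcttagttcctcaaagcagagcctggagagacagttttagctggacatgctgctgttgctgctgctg
Siglec5: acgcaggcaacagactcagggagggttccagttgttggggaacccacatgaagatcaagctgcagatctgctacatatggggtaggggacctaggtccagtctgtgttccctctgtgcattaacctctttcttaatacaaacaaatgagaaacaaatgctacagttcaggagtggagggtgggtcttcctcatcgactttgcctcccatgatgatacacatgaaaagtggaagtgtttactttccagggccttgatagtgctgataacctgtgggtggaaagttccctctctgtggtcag
The motifs searched on both strands were the kappa-B consensus bound by NF-kB, TTCNNNNGAA bound by STAT6, TTCNNNGAA bound by other STAT proteins and TGANTCA bound by AP-1. No match to any of them lies in either window, which says only that these letters are absent there. Over all 32851 RefSeq promoters of this length, 8.46%, 6.95%, 8.30% and 7.81% hold a match, in the order given.

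**Figure D2:**
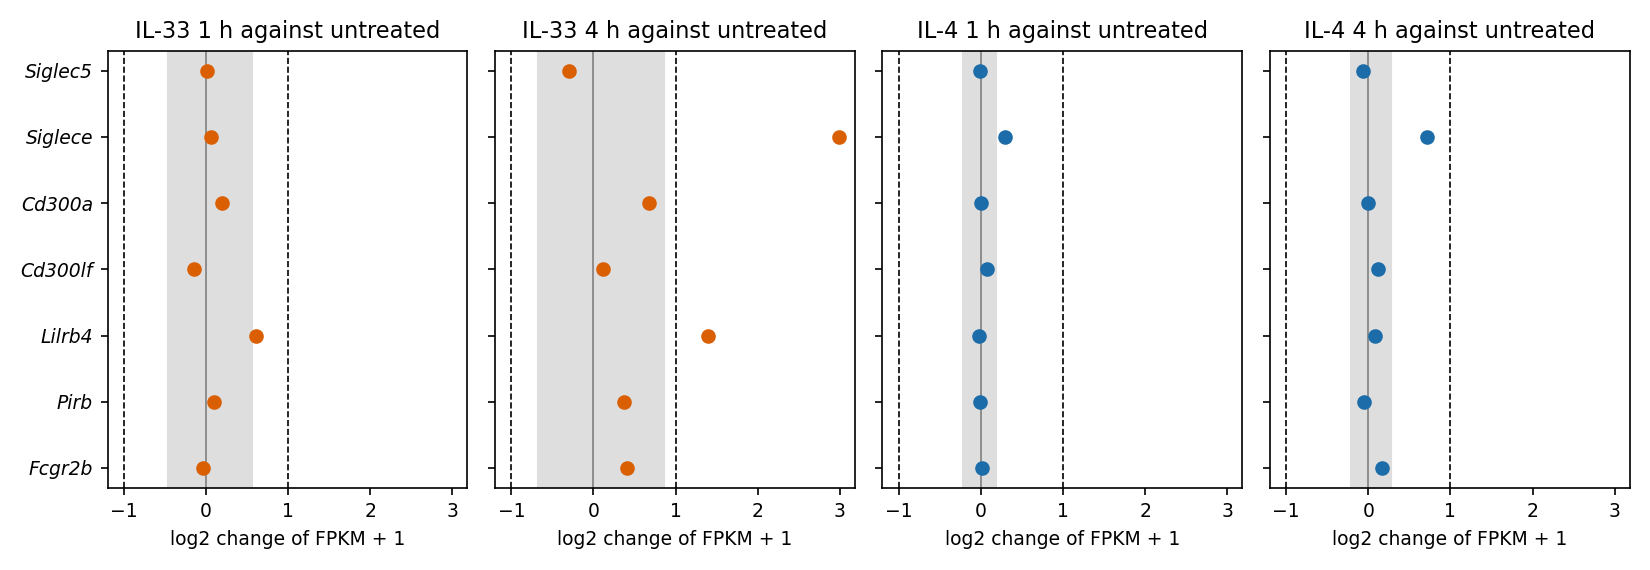
Change of each receptor gene against untreated cells, as log2 of FPKM + 1, in the 4 comparisons (orange IL-33, blue IL-4, 1 library against 1). Dashed lines mark the threshold of 1 in each direction and the grey band spans the 5th to 95th percentile of all genes compared; Siglece (2.98) and Lilrb4 (1.396) lie past the line with IL-33 at 4 h, and Siglece (0.72) lies outside the band with IL-4 at 4 h.

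Lilrb4 and Pirb belong to the leukocyte immunoglobulin-like receptors. Lilrb4 encodes gp49B, which binds the integrin alphaV-beta3 and was first described as a brake on mast cell activation. Pirb, the paired immunoglobulin-like receptor B, binds MHC class I molecules and is known to modulate the migration and survival of eosinophils in mice. Lilrb4 (NM_013532) lies on chromosome 10 at 51210781 to 51216417 in mm9, beside its activating relative Gp49a (NM_008147) at 51200485 to 51206025. Pirb lies on chromosome 7 at 3664107 to 3671984, near a family of activating Pira genes.

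Lilrb4 had the largest change of the 7 receptors with IL-33 at 1 h and the second largest at 4 h. With IL-33 at 4 h it had 918 FPKM, against 348 FPKM in untreated cells, a change of 1.396 that ranked 285 from the top. With IL-33 at 1 h it had 851 FPKM, against 556 FPKM in untreated cells, a change of 0.61 that lay under the threshold and above the 95th percentile of all genes (0.56). With IL-4 it had 389 FPKM at 4 h, against 368 FPKM in untreated cells (0.08), and 579.5 FPKM at 1 h, against 588 FPKM in untreated cells (-0.02). In the authors' deposited table of significant genes it was marked for IL-33 at 4 h only, with a log2 fold change of 1.399.

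The untreated libraries themselves differed in Lilrb4, with 368 FPKM at 4 h and 588 FPKM at 1 h in the IL-4 tables, a difference of -0.68. Over all genes the median of that difference was 0.10, with 2.44% past the threshold, 95 higher and 169 lower. None of the 7 receptors was past it, and Lilrb4 had the largest difference, the others lying between -0.21 and 0.28. The level with IL-33 was 918 FPKM at 4 h and 851 FPKM at 1 h, in separately normalised tables. The 4 h change therefore depends on which untreated library it is set against. Against the untreated library of 1 h, the change of Lilrb4 at 4 h of IL-33 was 0.72 and no longer past the threshold, and the change at 1 h against the untreated library of 4 h was 1.29.

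Reads of Lilrb4 may have been shared with its neighbour. Of the 50-base windows of its transcript, 27.8% occur also in the gene of the Gp49a transcript, and 100% occur in an overlapping predicted gene that the later GENCODE annotation names Gm49339. Gp49a itself had 774 FPKM with IL-33 at 4 h, against 358 FPKM in untreated cells (1.11), and 939.5 FPKM at 1 h, against 614 FPKM in untreated cells (0.61). The windows shared with Gp49a make the values of both genes uncertain, by an amount that was not computed. Windows of the Gp49a transcript itself were not counted, and how the authors' quantification divided such reads was not tested.

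Pirb had 317 FPKM with IL-33 at 4 h, against 246 FPKM in untreated cells (0.37), and 297 FPKM at 1 h, against 279 FPKM in untreated cells (0.09). With IL-4 it had 250.2 FPKM at 4 h, against 259 FPKM in untreated cells (-0.05), and 292 FPKM at 1 h, against 295 FPKM in untreated cells (-0.01). The 4 pairs thus lay within a factor of 1.29 of each other. Of the 50-base windows of Pirb, 37.3% occur in another annotated gene, most often the predicted gene Gm14548 with 21.7%, so its level is uncertain. The authors' deposited table of significant genes does not list Pirb under either symbol.

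The CD300 receptors recognise lipids at the cell surface. CD300a binds phosphatidylserine and phosphatidylethanolamine, which dying cells expose, and its human form is known to restrain eosinophils and mast cells. Cd300lf, also called CLM-1, binds phosphatidylserine and ceramide. Both lie on chromosome 11 in mm9, Cd300a (NM_170758) at 114751355 to 114765965 and Cd300lf (NM_001169153 and NM_145634) at 114952745 to 115023554. Of their windows of 50 bases, 3.31% and at most 6.45% occur in another annotated gene.

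Cd300a had 63.7 FPKM with IL-33 at 4 h, against 39.4 FPKM in untreated cells, a ratio of 1.62 and a change of 0.68. It had 52.4 FPKM with IL-33 at 1 h, against 45.6 FPKM in untreated cells (0.20). With IL-4 it had 41.4 FPKM at 4 h, against 41.6 FPKM in untreated cells (-0.01), and 48.3 FPKM at 1 h, against 48.3 FPKM in untreated cells (0.00). Its change with IL-33 at 4 h, the third in size among the 7 receptors, lay under the threshold and within the central 90% of all genes, of which 11.7% had a change at least as large. Counting intervals did not overlap at 4 h of IL-33 (62.4 to 65.1 FPKM against 37.9 to 40.9 FPKM in untreated cells), though these cover no variation between cultures.

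The Cd300a promoter is shown because, among the 6 receptor genes with a RefSeq promoter window, it alone held a match to one of the motifs searched. The window is chr11:114889791-114890090 on the plus strand in GRCm38.p6, and capitals mark the match to the kappa-B consensus, read on the opposite strand, whose first base lies at position -169 from the start.
Cd300a: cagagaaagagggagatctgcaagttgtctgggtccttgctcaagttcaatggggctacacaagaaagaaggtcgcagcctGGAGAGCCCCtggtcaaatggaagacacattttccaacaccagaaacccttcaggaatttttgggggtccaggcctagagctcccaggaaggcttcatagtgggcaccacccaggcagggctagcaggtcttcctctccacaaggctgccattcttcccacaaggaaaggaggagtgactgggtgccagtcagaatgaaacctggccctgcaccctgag
A match of this kind occurs in 8.46% of all RefSeq promoters of this length, and it is a description of letters and not evidence of a bound site. No window is given for Lilrb4.

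Cd300lf had 246 FPKM with IL-33 at 4 h, against 227 FPKM in untreated cells (0.12), and 178 FPKM at 1 h, against 197 FPKM in untreated cells (-0.14). With IL-4 it had 259.6 FPKM at 4 h, against 239 FPKM in untreated cells (0.12), and 220.2 FPKM at 1 h, against 208 FPKM in untreated cells (0.08). The untreated libraries had 239 FPKM at 4 h and 208 FPKM at 1 h, a difference of 0.20, which is larger than any of the changes with a cytokine. The authors' deposited table of significant genes marks Cd300lf for IL-4, with log2 fold changes of 0.12 at 4 h and 0.08 at 1 h. Its changes with IL-33, also 0.12 at 4 h, are not marked there.

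Fcgr2b encodes the inhibitory Fc receptor for IgG, which counters the activating Fc receptors when immune complexes bind both. It lies on chromosome 1 at 172890689 to 172906202 in mm9, with the transcripts NM_001077189 and NM_010187. It had 717 FPKM with IL-33 at 4 h, against 542 FPKM in untreated cells, a ratio of 1.32 and a change of 0.40, and 527 FPKM at 1 h, against 541 FPKM in untreated cells (-0.04). With IL-4 it had 641 FPKM at 4 h, against 572 FPKM in untreated cells (0.16), and 579 FPKM at 1 h, against 572 FPKM in untreated cells (0.02). Its untreated level was the same at both times to within 0.01 log2. Its activating counterpart Fcgr3, named after its value was seen because 11.7% of the windows of the shorter Fcgr2b transcript occur in it, had 707 FPKM with IL-33 at 4 h, against 694 FPKM in untreated cells (0.03). The authors' deposited table of significant genes marks Fcgr2b for IL-4 at 4 h, with a log2 fold change of 0.16. The larger change of Fcgr2b with IL-33 at 4 h (0.40) is not marked there.

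Fcgr2b and Cd300lf are each listed with a pair of transcripts, so their division could be followed. The longer Fcgr2b transcript, NM_001077189, held 38.0% of the gene's FPKM with IL-33 at 4 h, against 39.5% in untreated cells, and 39.3% with IL-4 at 4 h. At 1 h it held 30.1% with IL-33 and 29.6% with IL-4, against 30.5% in untreated cells. The share was thus closer between treated and untreated cells of 1 time than between times. For Cd300lf, the shorter transcript NM_145634 held 55.7% with IL-33 and 54.1% with IL-4 at 4 h, against 50.8% in untreated cells. At 1 h it held 46.0% with IL-33 and 39.5% with IL-4, against 44.6% in untreated cells. These shares are the authors' estimates from reads that the transcripts of a gene largely have in common, and their error was not given.

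**Figure D3:**
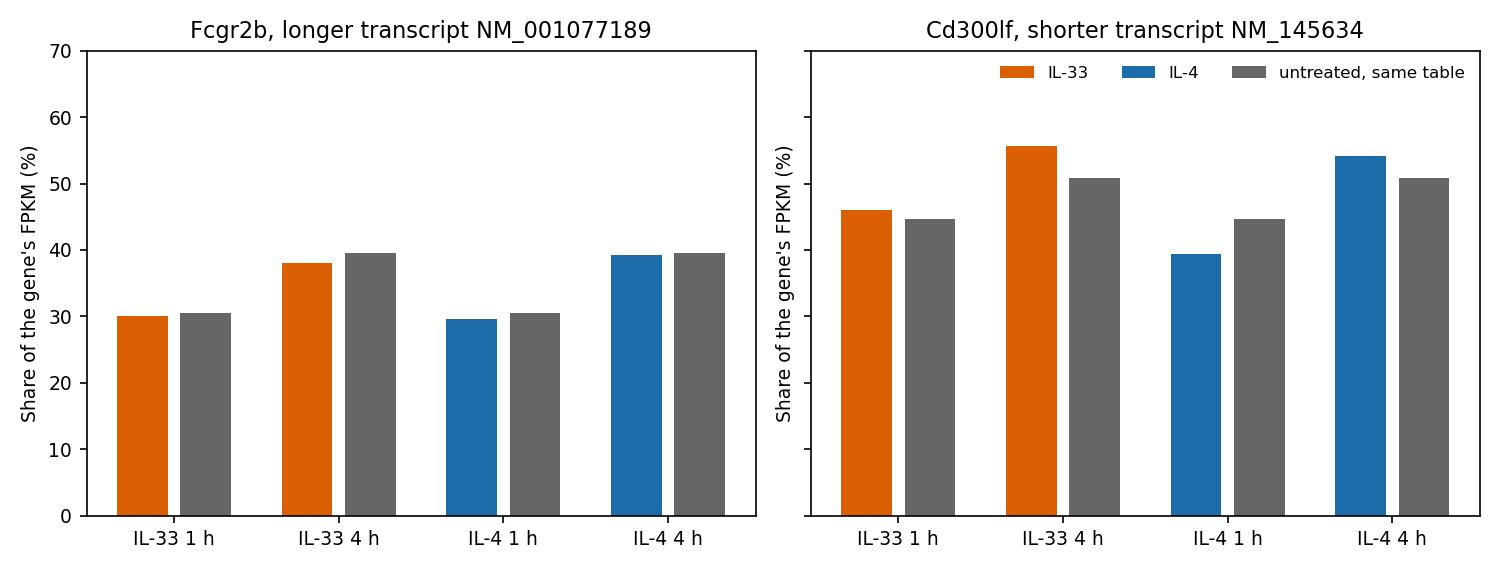
Share of a gene's FPKM (percent, bars from 0) held by the longer transcript of Fcgr2b and by the shorter transcript of Cd300lf, 1 library per bar, with the treated library (orange IL-33, blue IL-4) left of the untreated library of the same table (grey). The Fcgr2b bars lie near 30% at 1 h and near 39% at 4 h whatever the treatment.

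The cytokines were set against each other through their changes, which share the untreated library of the time. At 4 h, the change with IL-33 minus that with IL-4 was 2.27 for Siglece and 1.31 for Lilrb4, and these 2 of the 7 were past the threshold, with a background of 4.73% of 10976 genes. It was 0.68 for Cd300a, 0.42 for Pirb, 0.24 for Fcgr2b, -0.0012 for Cd300lf and -0.22 for Siglec5. At 1 h none was past it, with a background of 3.01% of 10748 genes, and Lilrb4 had the largest value with 0.64. The change at 4 h minus the change at 1 h with IL-33 was past the threshold for 1 of the 7, Siglece at 2.92, with a background of 4.61%, and 0.78 for Lilrb4. With IL-4 it was past it for none of the 7, with a background of 1.42%, and Siglece had the largest value, 0.42.

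Genes whose changes most resembled those of 3 receptors were sought by the Euclidean distance over the 4 log2 changes. The search covered 7629 genes that reached 5 FPKM in any library, with small RNA and predicted symbols passed over. Nearest to Siglece were Itsn1 (distance 0.37), Slc18a2 (0.67) and Ppfibp2 (0.76). Itsn1, which encodes an endocytic scaffold protein, had 18.6 FPKM with IL-33 at 4 h, against 1.81 FPKM in untreated cells, and 3.01 FPKM with IL-4 at 4 h, against 1.91 FPKM in untreated cells. Nearest to Lilrb4 were Trem1 (0.078), Il10rb (0.11) and Ctsz (0.13), and nearest to Siglec5 were Lgals9 (0.030), Rapgef2 (0.046) and Tnrc18 (0.048). The distances were larger around Siglece than around the others. The 4 changes share 2 untreated libraries, so these distances are a description.

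Other receptors and partners of the same pathway were followed in 4 lists. Of 30 genes listed as other inhibitory receptors, 24 were compared at 4 h of IL-33 and 5 had risen. The median of the 24 was 0.51 beside -0.03 for all genes, of which 5.53% were past the threshold. This list was not limited to receptors with an ITIM. Pilra, a receptor for sialylated glycoproteins, had 48.3 FPKM with IL-33 at 4 h, against 2.89 FPKM in untreated cells (3.66), and 7.12 FPKM at 1 h, against 3.38 FPKM in untreated cells (0.89). Ceacam1, an adhesion receptor with an ITIM, had 58.9 FPKM with IL-33 at 4 h, against 17.3 FPKM in untreated cells (1.71), and its near-copy Ceacam2, with which it may share reads, had 20.5 FPKM with IL-33 at 4 h, against 6.64 FPKM in untreated cells (1.50). Slamf7, a self-binding receptor of the SLAM family, had 19.7 FPKM with IL-33 at 4 h, against 3.66 FPKM in untreated cells (2.15).

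The fifth of these, Siglecg, is a further Siglec gene of the same region of chromosome 7, at 50663650 to 50673719, and is best known from B cells. It had 21.1 FPKM with IL-33 at 4 h, against 6.58 FPKM in untreated cells (1.54), and 18.2 FPKM at 1 h, against 15.3 FPKM in untreated cells (0.24). Untreated cells had 6.95 FPKM at 4 h and 16.2 FPKM at 1 h in the IL-4 tables, a difference of -1.11. As for Lilrb4, the level with IL-33 differed less between the times than the untreated level, which was lower at 4 h. Against the untreated library of 1 h, the change of Siglecg at 4 h of IL-33 was 0.44, under the threshold. No gene of the list was past the threshold with IL-33 at 1 h or with IL-4 at either time, with medians of 0.01 for IL-33 at 1 h, 0.08 for IL-4 at 4 h and 0.01 for IL-4 at 1 h.

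Among 25 listed activating partners and relatives, 22 were compared at 4 h of IL-33, with a median of 0.42 beside -0.03 for all genes. Past the threshold were 5.53% of all genes, and 2 of the 22 had risen. One was Gp49a, described above. The other was Trem1, a DAP12-coupled receptor that amplifies inflammation, which had 17.5 FPKM with IL-33 at 4 h, against 6.18 FPKM in untreated cells (1.37) and 44.9 FPKM with IL-33 at 1 h, against 27.7 FPKM in untreated cells (0.67). The untreated level of Trem1 was itself lower at 4 h than at 1 h, by a difference of -2.01. Against the untreated library of 1 h, the change at 4 h of IL-33 was -0.63 for Trem1 and 0.33 for Gp49a, so neither was past the threshold and that of Trem1 changed sign. No member of this list was past the threshold in the other comparisons with untreated cells. Relatives of Pirb were named after their values were seen, because they may share its reads. Of these, Pira4 had 74.6 FPKM with IL-33 at 4 h, against 53.5 FPKM in untreated cells (0.47), the smallest change among Pira1, Pira2, Pira4, Pira6, Pira7, Pira11 and Lilra6. The largest was that of Pira7, which had 54.8 FPKM with IL-33 at 4 h, against 29.6 FPKM in untreated cells (0.87).

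Of 16 effectors downstream of the motif, all were compared, with a median of 0.16 with IL-33 at 4 h beside -0.03 for all genes. Past the threshold were 5.53% of all genes, and 1 of the 16 had risen, a share near that. This was Fgr, a Src-family kinase, which had 104 FPKM with IL-33 at 4 h, against 43.7 FPKM in untreated cells (1.23). The effectors with the highest untreated level were Dok3, an adaptor that recruits SHIP-1, which had 233 FPKM with IL-33 at 4 h, against 312 FPKM in untreated cells (-0.42), and Ptprc, the phosphatase CD45, which had 226 FPKM with IL-33 at 4 h, against 216 FPKM in untreated cells (0.06). Named after their values were seen, because the receptors act through them, Ptpn6 had 360.0 FPKM with IL-33 at 4 h, against 207 FPKM in untreated cells (0.79) and Ptpn11 had 34.9 FPKM with IL-33 at 4 h, against 17.5 FPKM in untreated cells (0.96). Chosen in the same way, Lyn had 139 FPKM with IL-33 at 4 h, against 71.1 FPKM in untreated cells (0.95) and Inpp5d had 101 FPKM with IL-33 at 4 h, against 99.9 FPKM in untreated cells (0.02), all under the threshold. No effector was past it with IL-33 at 1 h or with IL-4.

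Ligands and enzymes that make them numbered 15, of which 11 or 12 were compared, and none was past the threshold in any comparison with untreated cells. The median at 4 h of IL-33 was 0.13, beside -0.03 for all genes, of which 5.53% were past the threshold. The MHC class I gene H2-D1, whose product is a ligand of PIR-B, had 1941 FPKM with IL-33 at 4 h, against 1758 FPKM in untreated cells (0.14). B2m, the light chain of MHC class I, had 2279 FPKM with IL-33 at 4 h, against 1385 FPKM in untreated cells (0.72).

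**Figure D4:**
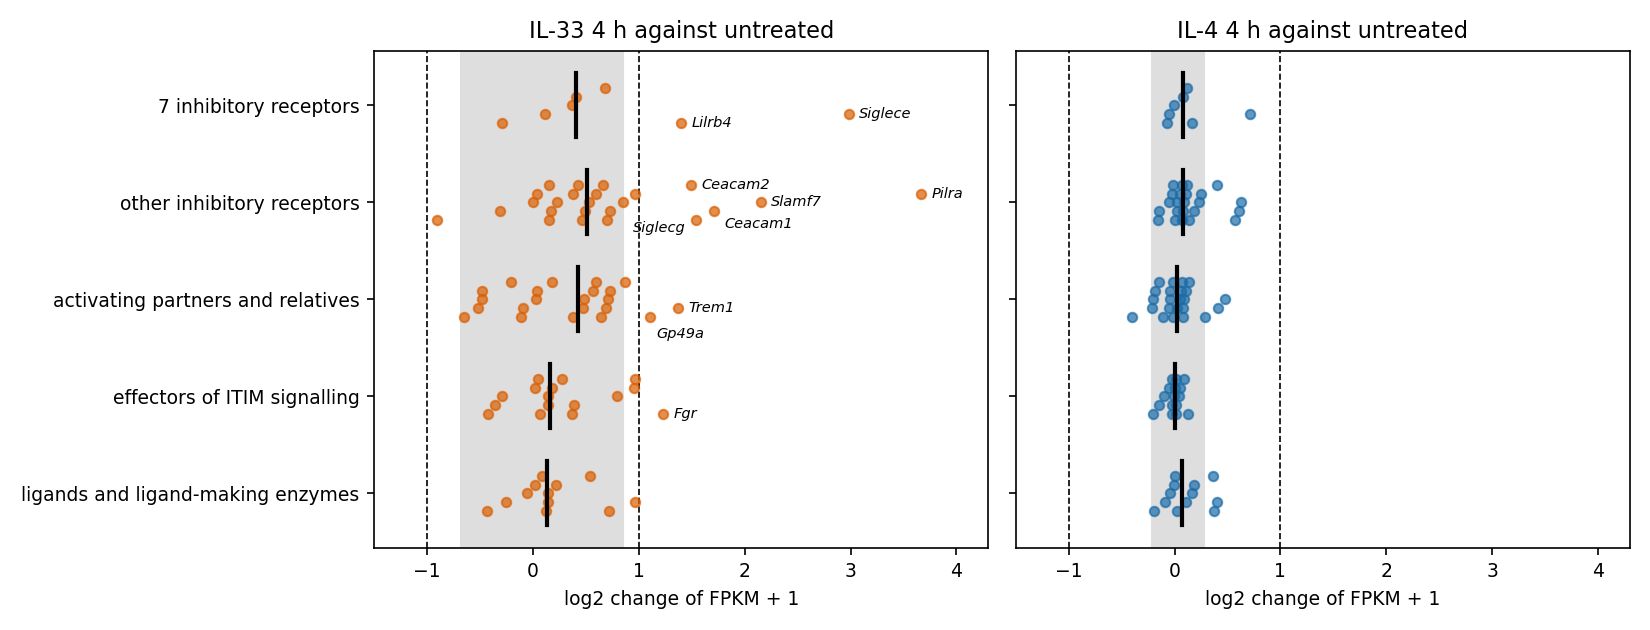
Change against untreated cells at 4 h (log2 of FPKM + 1) for the 7 receptors and the 4 lists, 1 point per gene, with IL-33 left and IL-4 right. Black bars are medians, dashed lines the threshold of 1, grey bands the 5th to 95th percentile of all genes; with IL-33, 2 receptors and 5, 2, 1 and 0 list genes lie past the line, and with IL-4 none does.

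Markers of other cell types were read beside these results. The summed FPKM of 10 eosinophil markers was 58234 with IL-33 at 4 h, against 62047 in untreated cells. Most of that sum was Prg2, with 41838 FPKM against 44745 FPKM in untreated cells. Past the threshold was 1 of 10, Hrh4, at a low level (0.12 FPKM against 1.55 FPKM in untreated cells, lower). Of the 10, 8 had a change below 0, among them Il5ra (-0.89), Alox15 (-0.76) and Epx (-0.53). A change above 0 was seen in 2, Gata1 (0.72) and Ear1 (0.07). The 11 monocyte and macrophage markers summed to 1499.98 with IL-4 at 4 h, against 1503 in untreated cells, with 1 past the threshold (Mrc1). At 1 h they summed to 2389 with IL-33, against 2273 in untreated cells, with 1 past it (Cd14), and to 2425 with IL-4, against 2405 in untreated cells, with 0 past it. Siglec-E, gp49B and several of the listed receptors are also carried by monocytes. The 9 neutrophil markers summed to 6113 with IL-33 at 4 h, against 7812 in untreated cells, with 0 of 9 past the threshold. The 10 mast cell and basophil markers summed to 396 with IL-33 at 4 h, against 365 in untreated cells, with 0 past it and Mcpt4 and Tpsb2 under 0.1 FPKM. The 6 T and NK cell markers summed to 14.4 with IL-33 at 4 h, against 13.9 in untreated cells, with 1 past the threshold (Klrb1c). For B cells, 7 markers summed to 3.58 with IL-33 at 4 h, against 4.02 in untreated cells. Of these, 5 were under 0.1 FPKM with IL-33, 2 were compared and 0 were past the threshold.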

How the data were processed

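RNA was measured in 6 single-read Illumina libraries, 1 per group, grouped by their titles. Per the submitters' processing notes, TopHat 1.4.1, build mm9 and Cuffdiff 1.2.1 were used. The sources used here do not state trimming or the RefSeq release. From these steps the authors deposited FPKM for 28702 RefSeq transcripts in 4 tables, each with a treated library and its untreated partner, and a list of log2 fold changes for 1593 genes that the authors called significant. The tables had been normalised separately, with untreated values in the IL-33 tables at 0.945 (1 h) and 0.947 (4 h) of those in the IL-4 tables, so changes were taken within a table. The difference of the untreated libraries and the changes against the untreated library of the other time cross tables.

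The design assumed values per gene and the files hold transcripts, which were summed per symbol. All 7 receptors are named. Of each of 4 gene lists, up to 6 genes are named, by largest change, with a change of at least 1 against untreated cells and FPKM of at least 5. Where fewer than 2 passed, the 2 highest in untreated cells of 4 h are named. The receptors and lists were chosen with earlier results of these data known. Pira3, Pira5 and the marker Ly6g had no entry. Syk was found as Sykb by its RefSeq accession. Depth and read numbers were estimated from the FPKM that 1 read gives, with exact Poisson 95% intervals that cover counting error only. Windows of 50 bases were compared over GENCODE vM21 transcripts. Python 3.11.15, pandas 2.3.3 and scipy 1.17.1 were used. The steps were tested on copies of the untreated values with known folds put on some genes and no noise, which checks the arithmetic only.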

Additional observations from a re-analysis of the deposited data

How the results depend on the processing

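No paired analysis was possible because each group has 1 library and no result comes from a test, and for the same reason no library could be left out. Of 287 values of single receptors under other settings (a pseudocount of 0.1, no filter on low values, the highest transcript only, centring on the median, the untreated library of the other time, and the control columns of the IL-33 tables), 285 kept their side of the threshold. The sign changed in 14, of which 0 had been past the threshold and all had been at most 0.12 in size: 6 with the untreated library of the other time, 5 with centring, 2 with the highest transcript only and 1 with the IL-33 tables. Among these, Lilrb4 with IL-4 was -0.60 at 4 h and 0.65 at 1 h against the untreated library of the other time. The values that crossed the threshold were Lilrb4 with IL-33 at 4 h, which was 0.72 against the untreated library of 1 h, and with IL-33 at 1 h, which was 1.29 against that of 4 h. With these untreated libraries, 1 receptor was past the threshold for IL-33 at 4 h and 1 at 1 h, and the genes past it numbered 778 for IL-33 at 1 h, 280 for IL-4 at 4 h and 295 for IL-4 at 1 h, while the median of all genes moved to 0.08 (IL-33, 4 h), -0.11 (IL-33, 1 h), 0.12 (IL-4, 4 h) and -0.12 (IL-4, 1 h). With a pseudocount of 0.1 they numbered 183 for IL-4 at 4 h, 459 for the untreated libraries, 815 for the change at 4 h minus that at 1 h of IL-33 and 292 for that of IL-4. With the highest transcript only they numbered 177 for IL-4 at 4 h, 147 for IL-4 at 1 h and 285 for the change at 4 h minus that at 1 h of IL-4. The cause of these moves was not tested. Low values, such as Siglece in untreated cells, are limited by depth, and every difference by the single library per group.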
